A study of Mus musculus with 15 samples.

Results

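Genes for the subunits of oxidative phosphorylation were followed in mouse embryonic stem cells kept for 72 h without LIF or with LIF and sorbitol. They were taken by gene symbol (Nduf, Sdh, Uqcr, Cox4 to Cox8 and Atp5 genes) with at least 15 counts summed over the 15 libraries. This gave 81 genes of 21516 listed, and 13177 listed genes reached the same minimum. By their known place, 34 belong to complex I, 4 to complex II, 8 to complex III, 15 to complex IV and 15 to complex V. Ndufa4, named as a complex I gene, was placed in complex IV, where its product sits. The remaining 5 were placed in none: Cox4nb, whose product belongs to a membrane complex of the endoplasmic reticulum, Atp5s, Atp5sl, the assembly protein Cox7a2l, and Ndufa4l2, a relative of Ndufa4. Another 4 symbols matched but fell under the minimum: Cox4i2 and Cox6a2 with 5 counts each, and Cox8b and Ndufs5 with 0. Ndufs5 was the only complex I gene under the minimum, and whether its 0 reflects expression or the assignment of reads was not tested. Of the 81 genes, 77 had enough counts to be tested, and Atp5g2, Atp5s, Cox7b2 and Cox8c did not.

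The cells were 1 line, REX-1 RFP, which carries a red fluorescent protein under the Rex1 promoter. Rex1 (Zfp42) is a gene of undifferentiated stem cells. The ND group (normal differentiation) was grown without LIF, and the NS group (normal stemness) with LIF, the cytokine that keeps mouse stem cells undifferentiated. The other groups were grown with LIF and with 200, 250 or 300 mM sorbitol, an osmotically active sugar alcohol. Each of the 5 groups had 3 libraries, described as biological triplicates, all begun from cells grown with LIF for about 18 h.

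Oxidative phosphorylation makes most of the ATP of a respiring cell. Complexes I and II pass electrons from NADH and succinate to ubiquinone, complex III passes them on to cytochrome c, and complex IV hands them to oxygen. Complexes I, III and IV pump protons across the inner mitochondrial membrane, and complex V, the ATP synthase, makes ATP as the protons flow back. Naive mouse embryonic stem cells are known to use both respiration and glycolysis. The nucleus encodes all subunits of complex II and most subunits of the others, and several subunits of complex IV come in forms that differ between tissues. The core subunits encoded by mitochondrial DNA were not analysed here, since 0 such symbols were listed.

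The libraries held 968556 to 2289528 counts, with replicate 1 of each group the deeper one (1872918 to 2289528). The 81 genes together took 2.11 to 2.70% of the counts of a library. Levels are given as CPM, the count relative to the library total, scaled by TMM factors. The assay, QuantSeq, reads about 1 tag near the 3' end of each transcript, so levels of different genes can be set side by side without dividing by length. In bulk samples, fewer cells of a type and less RNA per cell cannot be told apart. Within a group, libraries varied well beyond sampling noise (chi-square per degree of freedom 2.45 to 29.3), and NS 1 and NS 2 stood apart from NS 3. Genes for cytosolic ribosomal proteins (80 tested) had a median log2 deviation from the 15-library mean of 0.82 in ND 2, while NS 1, NS 2 and NS 3 stood at -0.45, -0.42 and 0.14 and the other 11 libraries between -0.11 and 0.13. Results that rest on NS are therefore also given without NS 3 and, as an alternative chosen after these values were seen, without NS 1 and NS 2. The stem cell markers (7 of 7 detected in every group) summed to 691 to 1378 CPM in ND, 1655 to 2016 CPM in NS, and 2216 to 2594, 1858 to 2215 and 1842 to 2167 CPM at 200, 250 and 300 mM.

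Most subunit genes kept a level in sorbitol or without LIF that did not differ from NS beyond the spread between libraries. Cox6b2 passed the test at 2 sorbitol doses, and Cox6b1 and Ndufa3 at 1, but which genes passed depended on the NS libraries. In the quasi-likelihood test of edgeR, adjusted over all 9390 genes tested (Benjamini-Hochberg, threshold 0.05), 0 of 77 passed in ND, where 0.0319% of all genes did, and 0 of 77 at 200 mM, where 0.586% did. At 250 mM 1 passed, Cox6b2, which is 1.3% of the 77 against 4.47% of all genes (2.46% fell). At 300 mM 3 passed, which is 3.9% against 7.89% of all genes (3.23% rose and 4.66% fell): Cox6b2 fell, and Cox6b1 and Ndufa3 rose. Along the sorbitol dose, tested as a slope over the 9 sorbitol libraries, 1 of 77 passed, again Cox6b2, against 0.101% of 8928 genes. At an unadjusted p under 0.05 the 77 gave 0 in ND, 2 at 200 mM, 9 at 250 mM and 10 at 300 mM (0.0%, 2.6%, 11.7% and 13.0%), against 6.39%, 11.0%, 21.9% and 24.7% of all genes. DESeq2 called 0 of the 77 in ND, 0 at 200 mM, 3 at 250 mM and 5 at 300 mM, where it called 26, 161, 742 and 1031 of all 9390 genes. All 4 comparisons share the 3 NS libraries.

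The median log2 change over the 77 genes was 0.11 in ND, 0.09 at 200 mM, 0.01 at 250 mM and 0.07 at 300 mM, against medians over all genes tested between -0.01 and 0.01. The change was above 0 for 53, 47, 40 and 46 of the 77, against 49.4%, 51.0%, 49.3% and 49.1% of all genes, and the slope was above 0 for 43, against 49.1%. Within 1 replicate number the median difference from NS varied. In ND it was -0.07, 0.52 and -0.11 for replicates 1, 2 and 3, so that the pooled value rested on ND 2. At 200 mM it was 0.10, 0.24 and -0.13, at 250 mM -0.01, -0.00 and 0.03, and at 300 mM 0.13, 0.04 and 0.06. The count of calls depended on the NS libraries. Without NS 3, 12 of the 77 passed at 250 mM and 11 at 300 mM, and 10 of each rose, in a setting where 1413 and 1500 genes passed in all. Without NS 1 and NS 2, 0 passed at 250 mM and 1 at 300 mM, Cox6b2, and 10 and 32 genes passed in all.

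**Figure D1:**
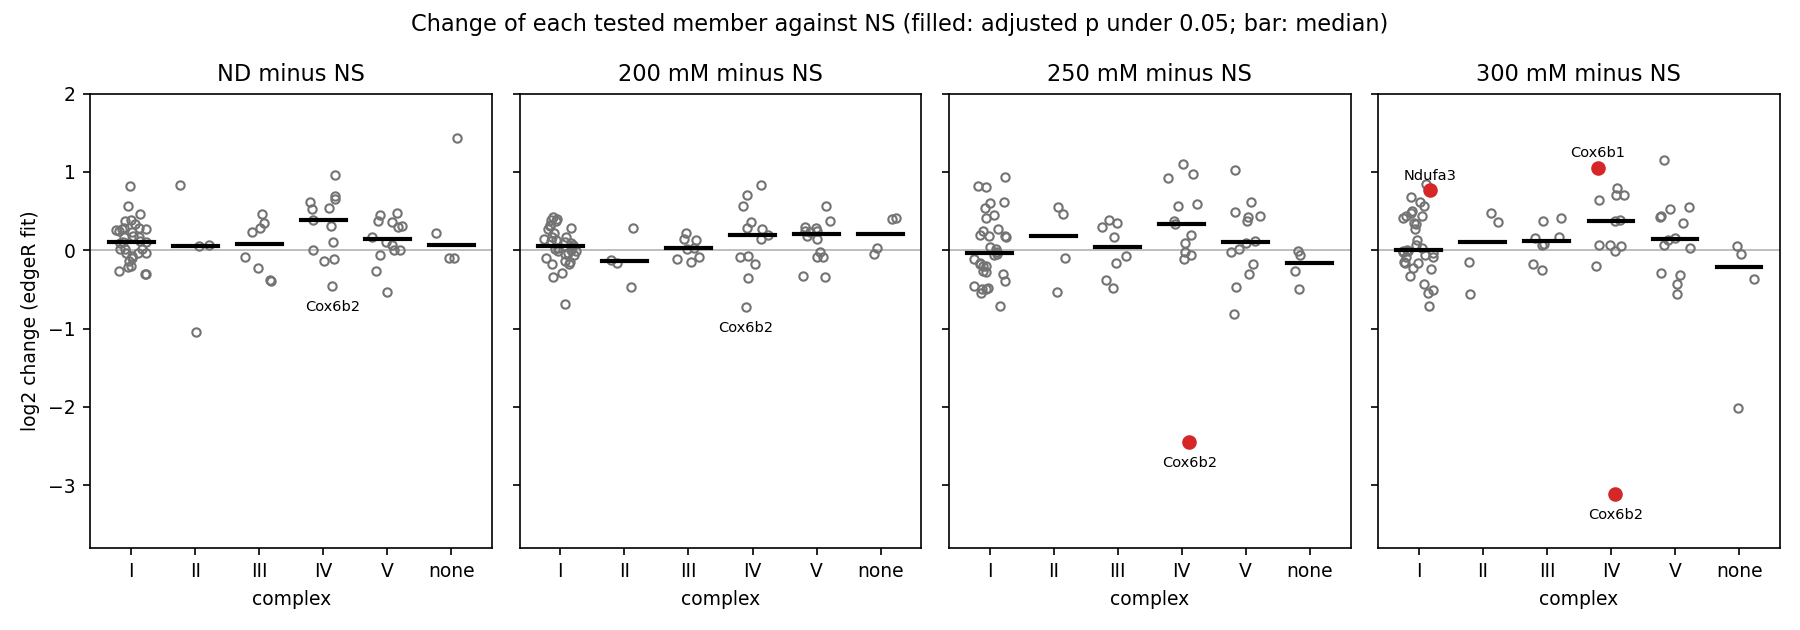
Log2 change of each of the 77 tested genes against NS (y axis, edgeR fit), by complex (x axis) in ND and at 200, 250 and 300 mM sorbitol; filled red points have an adjusted p under 0.05 and bars are medians. Cox6b2 lies at -0.46, -0.72, -2.44 and -3.12, while the medians of complexes I to V stay between -0.14 and 0.39.

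Cox6b2 and Cox6b1 encode alternative forms of subunit 6B, a small protein on the intermembrane side of cytochrome c oxidase, and Cox6b2 is known in mammals as the testis form. Cox6b2 fell at 250 and 300 mM sorbitol. It had 15.5, 20.1 and 15.8 CPM in ND and 25.1, 20.7 and 23.8 CPM in NS. In the sorbitol groups it had 13.8, 16.5 and 12.1 CPM at 200 mM, 4.67, 3.93 and 3.92 CPM at 250 mM and 3.23, 2.5 and 1.82 CPM at 300 mM. The libraries at 250 and 300 mM were all below those of the other 3 groups and did not overlap each other, all libraries of ND and 200 mM were below those of NS, and ND and 200 mM overlapped. Behind these levels stand few counts: 70 in ND, 103 in NS, and 59, 19 and 11 at 200, 250 and 300 mM, of which the libraries at 300 mM gave 6, 3 and 2.

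Against NS, Cox6b2 changed by -2.44 ± 0.33 (SE) on the log2 scale at 250 mM (edgeR, adjusted p = 0.00074) and by -3.12 ± 0.36 at 300 mM (edgeR, adjusted p = 0.000191). Mean levels were 4.17 ± 0.431 CPM at 250 mM and 2.52 ± 0.705 CPM at 300 mM, against 23.2 ± 2.26 CPM in NS (SD, n = 3 each), so NS held 5.56 times and 9.21 times the sorbitol level. Counted from the lowest log2 change of the 9390 genes tested, it stood at rank 25 at 250 mM and rank 20 at 300 mM. The change was -0.46 ± 0.29 in ND (edgeR, adjusted p = 0.814) and -0.72 ± 0.29 at 200 mM (edgeR, adjusted p = 0.359), and neither passed. The slope over the sorbitol groups was -1.28 ± 0.22 per 50 mM (edgeR, adjusted p = 0.0441). An exact permutation test of the levels gave p = 0.1 for each of these 4 comparisons with NS, two-sided, the smallest value that 3 against 3 libraries allow.

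The call at 300 mM was kept in all 13 alternatives, with an adjusted p of 1.98e-06 to 0.0211. The call at 250 mM was kept in 11 of 13 and lost with replicates 2 and 3 alone (edgeR, adjusted p = 0.0645) and without NS 1 and NS 2 (edgeR, adjusted p = 0.0615), where its log2 change was -2.49 and -2.44. The slope lost its call in 10 of 15 alternatives, 8 of which left out 1 sorbitol library each, those being all except Sorbitol 200 mM replicate 3, and its size stayed between -1.45 and -1.19.

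**Figure D2:**
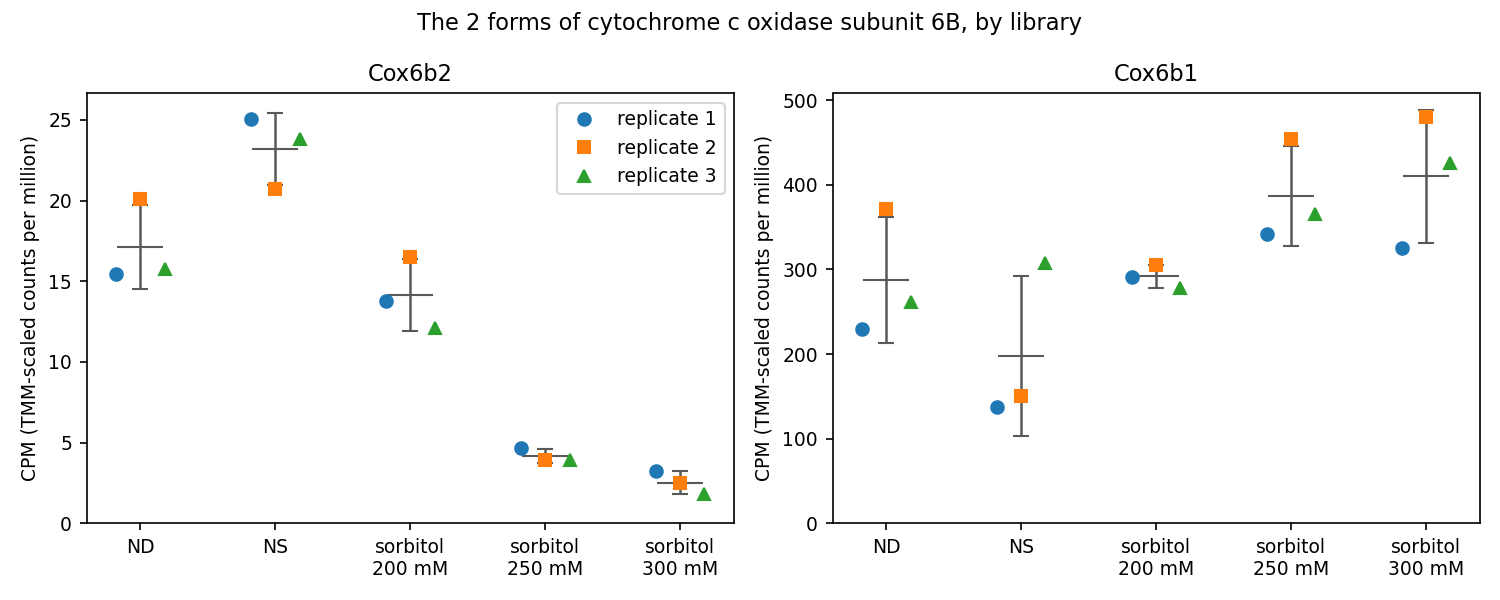
CPM of Cox6b2 (left) and Cox6b1 (right) in each library by group, with the mean and SD of 3 libraries (horizontal and vertical lines). Cox6b2 stands at 15.5 to 20.1 in ND, 20.7 to 25.1 in NS and 1.82 to 4.67 in the 6 libraries at 250 and 300 mM, while Cox6b1 is spread from 137 to 307 within NS.

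Cox6b1, the form found in most tissues, was the more abundant of the pair in every library. It had 229.9, 371 and 262 CPM in ND and 137, 150.2 and 307 CPM in NS. In sorbitol it had 292, 306 and 278 CPM at 200 mM, 342, 454 and 365 CPM at 250 mM and 325, 479.8 and 426 CPM at 300 mM. All libraries at 250 and 300 mM were above NS, but NS 3 was close to them and more than 2 times NS 1 and NS 2. The change was 0.97 ± 0.29 at 250 mM (edgeR, adjusted p = 0.0673) and 1.05 ± 0.29 at 300 mM (edgeR, adjusted p = 0.0383). The call at 300 mM was lost in 7 of 13 alternatives, including those without NS 1, without NS 2, without Sorbitol 300 mM replicate 2 and without Sorbitol 300 mM replicate 3, and the change was 0.47 without NS 1 and NS 2.

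Cox6b2 was also given as a share of the summed counts of the pair within 1 library, which does not depend on the library total. It does depend on Cox6b1, which was uneven in NS (137, 150.2 and 307 CPM), while Cox6b2 was more even there (25.1, 20.7 and 23.8 CPM). The higher shares of NS 1 and NS 2 therefore go with their lower Cox6b1. The share was 6.30, 5.14 and 5.68% in ND and 15.5, 12.1 and 7.20% in NS. At 200 mM it was 4.52, 5.13 and 4.18%, at 250 mM 1.34, 0.858 and 1.06%, and at 300 mM 0.985, 0.519 and 0.426%. The shares of NS were above those of every other library, and those at 250 and 300 mM, which overlapped each other, were below all the rest. The Wilson 95% intervals ran from 0.117 to 2.54% over the 6 libraries at 250 and 300 mM, against 5.0 to 19.7% over NS. They cover counting error within 1 library and not the spread between libraries. Reads carried no molecular identifiers, so they may be too narrow even for that. ND and 200 mM barely separated in this share, with means of 4.61 ± 0.482% at 200 mM and 5.71 ± 0.581% in ND (SD, n = 3 each; exact permutation test, two-sided, p = 0.1, the smallest possible). The nearest libraries were ND 2 at 5.136% (17 of 331 counts) and Sorbitol 200 mM replicate 2 at 5.128% (16 of 312). Their Wilson intervals were 3.23 to 8.07% and 3.18 to 8.17%, so the gap lay within counting error. In CPM of Cox6b2 the 2 groups overlapped (exact permutation test, two-sided, p = 0.3). Markers of other cell types differed between the same groups. The 7 trophoblast markers summed to 57.9 to 123 CPM in ND, 22.5 to 51.2 CPM in NS, and 117 to 387, 288 to 422 and 236 to 364 CPM at 200, 250 and 300 mM, with Cdx2 at 0 in ND and NS and the others detected. Of 5 tested, 3 rose at 200 mM and 4 each at 250 and 300 mM, where 0.586%, 4.47% and 7.89% of all genes passed in either direction. The calls at 200 mM were lost in 3 to 6 of 12 or 13 alternatives, and those at 250 and 300 mM in 0 to 2 of 13. The 8 endoderm markers, all detected, summed to 505 to 700.0 CPM in ND, 546 to 1291 CPM in NS, and 824 to 1603, 853 to 1303 and 1287 to 1898 CPM at the 3 doses, and 1, 3 and 3 of 6 tested rose. These calls were lost in 7 of 12 alternatives at 200 mM, in 4 to 6 of 13 at 250 mM and in 0 to 6 of 13 at 300 mM. The part of these cells in the Cox6b2 result was not tested. Fibroblast markers stayed at 3.11 to 18.6 CPM in sum, with Col3a1 and Postn at 0 in every group. Of the 7 stem cell markers 2 fell in ND, where 0.0319% of all genes passed, and both lost the call in 8 of 13 alternatives.

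Both genes lie on mouse chromosome 7, and GENCODE M21 places 0 other genes over either of them. Their promoters are shown because the pair moved in opposite directions at 300 mM. They run from 250 bases before to 50 bases after the transcript start, from RefSeq on GRCm38.p6, whereas the counts were made on mm9. Cox6b2 is on the minus strand at chr7:4753045-4753344, and Cox6b1 on the minus strand at chr7:30626065-30626364. Capitals mark matches to any of the motifs searched, on either strand.
Cox6b2: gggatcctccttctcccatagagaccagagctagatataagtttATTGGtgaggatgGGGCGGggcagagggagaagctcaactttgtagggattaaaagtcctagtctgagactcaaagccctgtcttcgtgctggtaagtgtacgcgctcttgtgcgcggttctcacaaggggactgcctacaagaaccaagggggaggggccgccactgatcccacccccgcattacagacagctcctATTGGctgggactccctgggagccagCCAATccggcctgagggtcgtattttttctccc
Cox6b1: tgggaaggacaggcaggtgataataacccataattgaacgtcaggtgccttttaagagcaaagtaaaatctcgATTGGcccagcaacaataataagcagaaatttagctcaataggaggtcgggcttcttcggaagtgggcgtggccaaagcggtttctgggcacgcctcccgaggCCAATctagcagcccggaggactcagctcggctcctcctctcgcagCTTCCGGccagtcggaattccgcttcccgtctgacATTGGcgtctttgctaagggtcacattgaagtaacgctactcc
The motifs were the ETS site CCGGAAG, bound by GABP among others, the NRF1 site GCGCATGCG, the GC box GGGCGG, the CCAAT box CCAAT, the estrogen-related receptor site TCAAGGTCA and the YY1 site AAGATGGCG. GABP and NRF1 are known regulators of respiratory chain genes. The Cox6b2 window held 3 CCAAT boxes, 2 of them on the opposite strand, where they read ATTGG, and 1 GC box, and it held none of the ETS, NRF1, receptor and YY1 letters. The Cox6b1 window held 3 CCAAT boxes and 1 ETS site, the last on the opposite strand. RefSeq gave a promoter for 67 of the 81 genes, 3 of them by an older symbol. A gene was counted if any of its promoters held the site, and the comparison was with all 27025 genes that had a promoter. Those were not limited to genes detected here, as the 67 were. The ETS site was in 16 of these 67 (23.9%) and in 9.93% of the 27025 genes, and the NRF1 site was in 8 (11.9%) against 1.95%. The YY1 site was also in 8 (11.9%) against 1.64%, and the receptor site in 2 (2.99%) against 0.466%. The GC box was in 28 (41.8%) against 38.2%, and the CCAAT box in 31 (46.3%) against 41.1%. No motif overlapped another in the windows printed.

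Complex IV as a whole had the highest median change of the 5 complexes in each comparison with NS except at 200 mM, where complex V was higher. Over its 13 tested genes the median was 0.39 in ND, 0.20 at 200 mM, 0.34 at 250 mM and 0.38 at 300 mM, and 10, 8, 9 and 10 of the 13 were above 0. These values rest on NS 1 and NS 2: relative to the mean of all libraries, the median of complex IV stood at -0.69 in NS 1, -0.52 in NS 2 and 0.12 in NS 3. In the other groups it was -0.28, 0.56 and -0.01 in ND, -0.07, 0.16 and -0.03 at 200 mM, 0.07, 0.16 and 0.21 at 250 mM and -0.06, 0.07 and 0.24 at 300 mM. The ribosomal protein genes stood low in the same pair of NS libraries, and their part in the complex IV values was not tested. Where complexes are assigned by the symbol alone, with Ndufa4 in complex I and Cox4nb and Cox7a2l in complex IV, the median of complex IV is 0.14 at 250 mM and 0.07 at 300 mM.

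The gene of complex IV with the highest mean over all libraries was Cox5a, which encodes a structural subunit on the matrix side, although the mean of Cox6c was above it in ND (785 against 686 CPM), NS (600.3 against 554 CPM) and at 200 mM (727 against 708 CPM). It had 554, 906 and 597 CPM in ND, 439.6, 494 and 729.9 CPM in NS, and 558, 797 and 768, 804, 807 and 836 and 871, 844 and 875 CPM at 200, 250 and 300 mM. Its libraries at 250 and 300 mM were all above NS, and its change of 0.64 ± 0.24 at 300 mM did not pass (edgeR, adjusted p = 0.117). Of Cox4i1, the common form of the largest subunit that the nucleus encodes, means were 531 ± 112 CPM in ND and 582 ± 144 CPM in NS, and its log2 change lay between -0.13 and -0.01 in the 4 comparisons. Its hypoxia- and lung-associated relative Cox4i2 had 5 counts in all. Cox6a1, the form of subunit 6A found outside muscle, changed by 0.07 ± 0.22 at 300 mM, and its heart and muscle relative Cox6a2 had 5 counts in all.

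Other subunits of complex IV also come in forms. Of the forms of subunit 7A, Cox7a2, the common one, had means of 309 ± 57.2 CPM in ND and 308 ± 23.5 CPM in NS, and changed by 0.06 ± 0.22 at 300 mM. Cox7a1, the heart and muscle form, had 30.0, 48.5 and 40.2 CPM in ND and 32.2, 44.1 and 33.5 CPM in NS. At 200, 250 and 300 mM it had 53.7, 81.6 and 43.6, 35.8, 55.0 and 47.8 and 31.8, 35.9 and 27.4 CPM. Its level was highest at 200 mM and lowest at 300 mM, and its slope of -0.45 ± 0.14 per 50 mM did not pass (edgeR, adjusted p = 0.233). Cox7a2l, which helps complexes III and IV associate, changed by -0.50 ± 0.25 at 250 mM and -0.37 ± 0.25 at 300 mM, neither of which passed. Of subunit 8, the common form Cox8a averaged 326 ± 68.0 CPM in ND and 207 ± 122 CPM in NS (SD, n = 3 each), with NS 3 at 349 CPM and NS 1 and NS 2 at 135 and 139 CPM. The testis-associated Cox8c had 42 counts in all and Cox7b2, a further testis-associated form, had 43, spread over all 5 groups (5 to 12 counts a group), too few to be tested. Cox7b, the partner of Cox7b2, had 179.8, 314 and 673 CPM in NS and changed by 0.38 ± 0.39 at 300 mM.

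Ndufa4, which encodes a late-joining subunit of complex IV, had the highest change of the complex at 250 mM, at 1.10 ± 0.47 (edgeR, adjusted p = 0.183). It had 47.3, 99.3 and 70.1 CPM in ND and 16.6, 22.5 and 73.3 CPM in NS. At 200, 250 and 300 mM it had 34.0, 90.9 and 73.5, 76.2, 80.1 and 80.7 and 50.1, 56.7 and 85.7 CPM. NS 3 fell among the sorbitol libraries, and NS 1 and NS 2 were below all other libraries. Its relative Ndufa4l2, a gene known as a target of hypoxia signalling in other cells, had 9.83, 35.5 and 15 CPM in ND and 4.26, 1.8 and 15.9 CPM in NS, and at 200, 250 and 300 mM 4.43, 20.7 and 4.85, 1.04, 9.42 and 11 and 1.62, 2.5 and 0.912 CPM. Its groups overlapped except that 300 mM lay below ND and 200 mM, and its change of -2.01 ± 1.03 at 300 mM against NS, from 7 counts against 29, did not pass (edgeR, adjusted p = 0.239).

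Complex I, the largest of the 5, kept medians of 0.11 in ND, 0.05 at 200 mM, -0.03 at 250 mM and -0.00 at 300 mM over its 34 genes, with 23, 21, 16 and 17 above 0. Ndufa3, a small accessory subunit of the membrane arm, rose at 300 mM. It had 129, 111 and 105 CPM at 200 mM, 159, 136 and 165 CPM at 250 mM and 163, 120.2 and 166 CPM at 300 mM. In ND it had 68.4, 111 and 89.8 CPM, against 86.1, 93.6 and 84.7 CPM in NS. All sorbitol libraries were above all NS libraries, and ND overlapped NS. The change was 0.38 ± 0.23 at 200 mM (edgeR, adjusted p = 0.586), 0.80 ± 0.23 at 250 mM (edgeR, adjusted p = 0.0525) and 0.77 ± 0.23 at 300 mM (edgeR, adjusted p = 0.0471). The call at 300 mM was lost in 10 of 13 alternatives, with a log2 change of 0.68 to 0.90, among them each of the 6 that left out 1 library of the compared groups. In GENCODE M21 Ndufa3 overlaps Tfpt on the other strand, and the strand setting of the counting is not given in the sources used here, so reads of the pair may be mixed. Tfpt had 15.6, 9.18 and 12.8 CPM at 300 mM, against 9.46, 0.9 and 7.94 CPM in NS.

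Ndufb8, a membrane arm subunit and the most abundant gene of complex I, had means of 869.6 ± 217 CPM in ND and 773 ± 55.7 CPM in NS, and at 200, 250 and 300 mM 832 ± 176, 671 ± 21.5 and 699 ± 104 CPM (SD, n = 3 each). Its log2 change lay between -0.20 and 0.17. The highest and the lowest change of the complex at 300 mM were those of Ndufb5 and Ndufv3. Ndufb5, another membrane arm subunit, had 305, 330.4 and 369 CPM at 300 mM, against 119, 168 and 272 CPM in NS, which did not overlap (log2 change 0.85 ± 0.28; edgeR, adjusted p = 0.0753). Ndufv3, a small subunit of the NADH-oxidizing module, had 123, 138 and 103 CPM at 200 mM, 84.0, 121 and 122 CPM at 250 mM and 103, 90.9 and 88.4 CPM at 300 mM, against 147, 174 and 142 CPM in NS. All sorbitol libraries were below NS, and its change of -0.71 ± 0.27 at 300 mM did not pass (edgeR, adjusted p = 0.121).

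Complex II, succinate dehydrogenase, also works in the citric acid cycle. Sdha, the flavoprotein that oxidizes succinate, was even, with means of 185 ± 36.6 CPM in ND and 178 ± 3.16 CPM in NS, and 164 ± 9.29, 166 ± 31.6 and 161 ± 28.8 CPM at 200, 250 and 300 mM. Sdhb, the iron-sulfur subunit, had 265, 305 and 178 CPM in ND and 282, 234 and 199 CPM in NS. At 200, 250 and 300 mM it had 310.2, 203 and 122, 168, 164 and 164 and 219, 140.2 and 127 CPM, and only the libraries at 250 mM were all below NS. Its change of -0.53 ± 0.31 at 250 mM and -0.55 ± 0.31 at 300 mM did not pass. The membrane anchors Sdhc and Sdhd were the uneven ones. Sdhc had 76.8, 229 and 139 CPM in ND, 28.4, 45.0 and 177 CPM in NS, and 42.8, 119 and 141, 66.4, 130.4 and 144 and 45.3, 140.2 and 135 CPM at the 3 doses, so that replicate 1 was lowest in every group. Sdhd, with 168 counts in all, had 2.81, 3.55 and 6.30 CPM in ND, 0.473, 5.40 and 22.1 CPM in NS, and 0.492, 9.30 and 10.5, 5.19, 11 and 22.7 and 0.539, 8.34 and 29.2 CPM at the 3 doses. Here too replicate 1 was lowest in every group and replicate 3 highest. None of the 4 genes passed in any comparison, and the spread between libraries leaves an SE of 1.05 to 1.19 on the log2 change of Sdhd.

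Complex III had medians of 0.07, 0.02, 0.05 and 0.11 in ND and at 200, 250 and 300 mM over 8 genes, and 0 passed in each comparison. Uqcr10, a small membrane subunit, had the highest mean over all libraries, although Uqcrh was above it at 250 mM (801 against 771 CPM) and 300 mM (929 against 899 CPM). It had the lowest change of the complex at 300 mM, at -0.26 ± 0.29, with 1191, 818 and 688 CPM at 300 mM, against 1379, 1054 and 786 CPM in NS, which overlapped. Uqcrq, a small subunit next to cytochrome b, had the highest change of the complex. It had 677, 788 and 782 CPM at 250 mM and 796, 736 and 750.4 CPM at 300 mM, against 526, 568 and 630.2 CPM in NS. The groups did not overlap, and the change of 0.40 ± 0.23 at 300 mM did not pass (edgeR, adjusted p = 0.289).

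Complex V had medians of 0.14, 0.21, 0.10 and 0.14 over 14 tested genes, and 0 passed. The c subunit, which forms the rotating ring, is encoded by several genes with the same mature protein. Atp5g3 was the most abundant, with means of 1452 ± 157 CPM in ND and 1119 ± 347 CPM in NS, and 1378 ± 364, 1565 ± 214 and 1423 ± 199.9 CPM at 200, 250 and 300 mM. Atp5g1 had 469, 495 and 523 CPM at 250 mM and 555, 547 and 485 CPM at 300 mM, against 395, 358 and 351 CPM in NS. The libraries did not overlap, and the change of 0.52 ± 0.19 at 300 mM did not pass (edgeR, adjusted p = 0.0949). Atp5g2 had 41 counts in all, 20 of them in ND, 6 in NS, and 2, 7 and 6 at 200, 250 and 300 mM. Atp5j, which encodes coupling factor 6 of the stalk, had the highest change of the complex at 300 mM (1.16 ± 0.58), and Atp5k, the small subunit e of the membrane part, the lowest (-0.56 ± 0.42). Neither passed, and both were uneven among libraries.

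Genes whose 3 libraries of 1 group overlapped none of the 3 NS libraries were counted as a second measure. In ND 1 of the 77 was above NS and 2 below, where 4.07% and 4.28% of all genes were. At 200 mM 2 were above and 3 below, against 6.02% and 6.33%. At 250 mM 8 were above and 10 below, against 13.9% and 14.0%, and at 300 mM 9 were above and 2 below, against 13.2% and 14.7%. Cox6b2 was below NS in all 4 comparisons, Ndufv3 in the 3 sorbitol ones, and Ndufa3 was above NS in the 3 sorbitol ones. Ndufb2, a further membrane arm subunit, was above NS in ND and at 200 and 300 mM, with 177, 235 and 152, 190.1, 173 and 175 and 219, 195 and 193 CPM, against 148, 147 and 141 CPM in NS, and at 250 mM it had 128, 198 and 175 CPM and overlapped NS. It was chosen after its values were seen, and it did not pass the test.

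**Figure D3:**
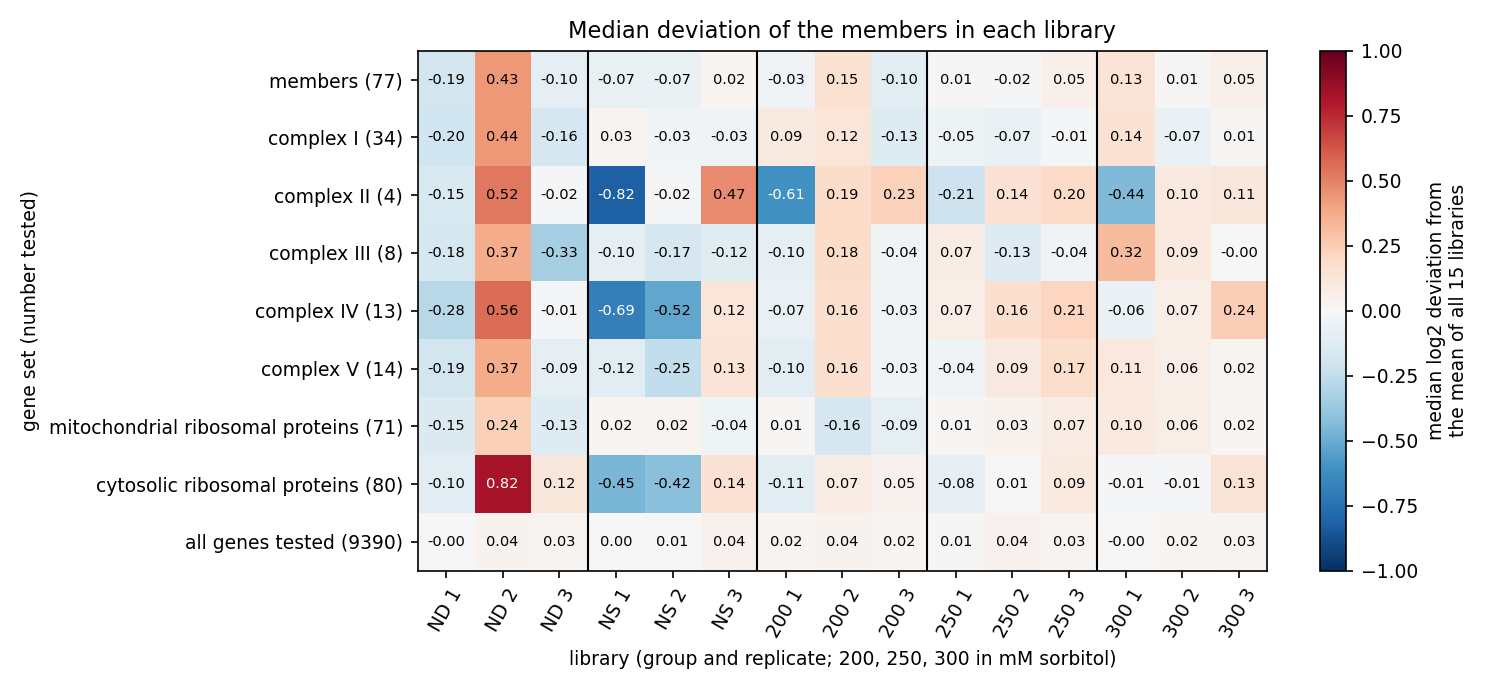
Median log2 deviation of the tested genes of each set from their mean over all 15 libraries (rows are sets with the number of genes, columns are libraries by group, colour and number give the deviation). Complex IV stands at -0.69 in NS 1 and -0.52 in NS 2, all 5 complexes are highest in ND 2 (0.37 to 0.56), and cytosolic ribosomal protein genes reach 0.82 in ND 2.

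Several subunit genes had levels far apart among libraries of 1 group. The range over the 3 NS libraries was at least 2-fold for 29 of the 77 (37.7%, against 37.1% of all genes) and at least 4-fold for 8 (10.4%, against 6.18%). It was at least 2-fold for 17 in ND (22.1%, against 33.4%), and for 18, 5 and 9 at 200, 250 and 300 mM (23.4%, 6.49% and 11.7%, against 40.0%, 12.2% and 19.5%). NS 3 was more than 2-fold above the mean of NS 1 and NS 2 for 17 (22.1%, against 14.6% of all genes) and more than 2-fold below it for 4 (5.19%, against 11.0%). Replicate 3 was above replicate 1 in all 5 groups for 23 of the 77 (29.9%, against 18.1%) and below it in all 5 for 21 (27.3%, against 15.7%).

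Cox7c, a small membrane subunit of complex IV, was the most uneven in NS by log2 CPM, which was computed with a prior count of 2. It was chosen after its values were seen, as were Ndufa1, Uqcrh and Atp5sl. By the plain ratio of CPM Sdhd was more uneven, from 1, 6 and 25 counts in NS. Cox7c had 298, 972 and 678 CPM in ND, 37.9, 112 and 1052 CPM in NS, and 105, 452 and 772, 439, 791 and 1037 and 153, 687 and 1112 CPM at 200, 250 and 300 mM. Replicate 1 was lowest in every group, and the NS libraries spanned the levels of all other libraries but 1, Sorbitol 300 mM replicate 3. Ndufa1, an essential subunit of the membrane arm of complex I, had 54.8, 201 and 150.4 CPM in ND, 27.4, 59.4 and 223 CPM in NS, and 29.5, 119.8 and 146, 113, 181 and 249 and 65.2, 140.2 and 265 CPM at the 3 doses. Atp5j had 59.9, 106 and 75.6 CPM in ND, 14.7, 34.2 and 127 CPM in NS, and 46.3, 94.0 and 116, 104, 101 and 147 and 63.6, 134 and 191 CPM at the 3 doses. In both genes replicate 3 was above replicate 1 in every group, as for Sdhc and Sdhd. Atp5k ran the other way, with 923, 743 and 501 CPM in ND, 1283, 844 and 478 CPM in NS, and 1094, 536 and 412, 657, 429.6 and 396 and 928, 449.7 and 392 CPM at the 3 doses. Uqcrh, the acidic hinge protein of complex III, did so too, with 1436, 1109 and 593 CPM in NS. Replicate 3 was the lowest library of every group for both. Of the 77, Atp5sl had the lowest value of NS 3 against the mean of NS 1 and NS 2, at -1.8 on the log2 scale, and Cox7c the highest, at 3.98.

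**Figure D4:**
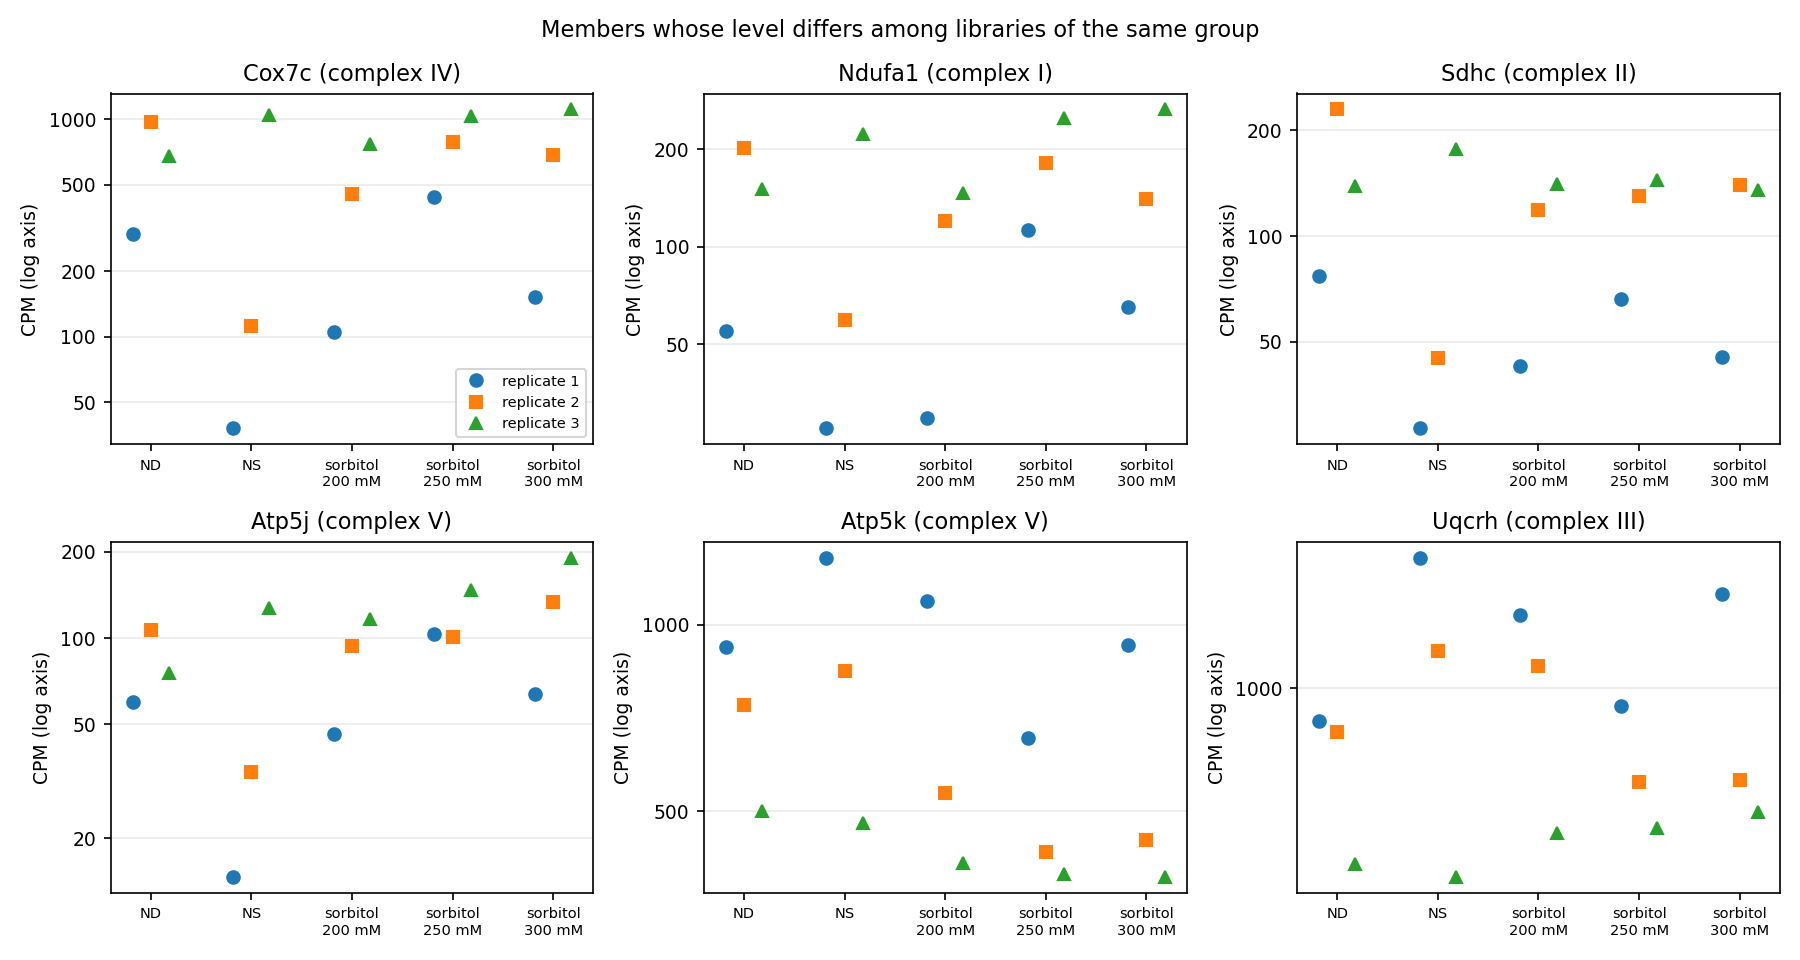
CPM (log axes) of 6 genes in each library, by group, with the marker giving the replicate number. Replicate 1 is the lowest library of each group for Cox7c, Ndufa1 and Sdhc, and replicate 3 is the lowest for Atp5k and Uqcrh; in NS, Cox7c spans 37.9 to 1052 CPM.

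A property of the transcripts moved with this unevenness. The GC content of the last 200 bases of the longest coding transcript in GENCODE M21 was available for 71 of the 77 genes (92.2%) and for 9164 of the 9390 (97.6%). This stretch stands in for the place of the 3' tags, but whether that transcript was the one expressed was not checked. Spearman's rho between it and the value of NS 3 over the mean of NS 1 and NS 2 was -0.52 across the 71 genes, and -0.32 across the 9164. Across genes of the same libraries these are descriptions, since genes are not independent replicates. Of the 23 genes of lowest GC content (27.5 to 37.5%), 20 were higher in NS 3, with a median of 0.95 on the log2 scale. Of the 23 of highest GC content (49.0 to 62.5%), 5 were, with a median of -0.22. With transcript length the rho was -0.05 across the 71 genes. Cox6b2, at 54.5% GC, differed by 0.06 between NS 3 and the mean of NS 1 and NS 2, and Cox6b1, at 44.5%, by 1.09. What part of the differences among libraries goes with GC content and what part with the cells was not tested.

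**Figure D5:**
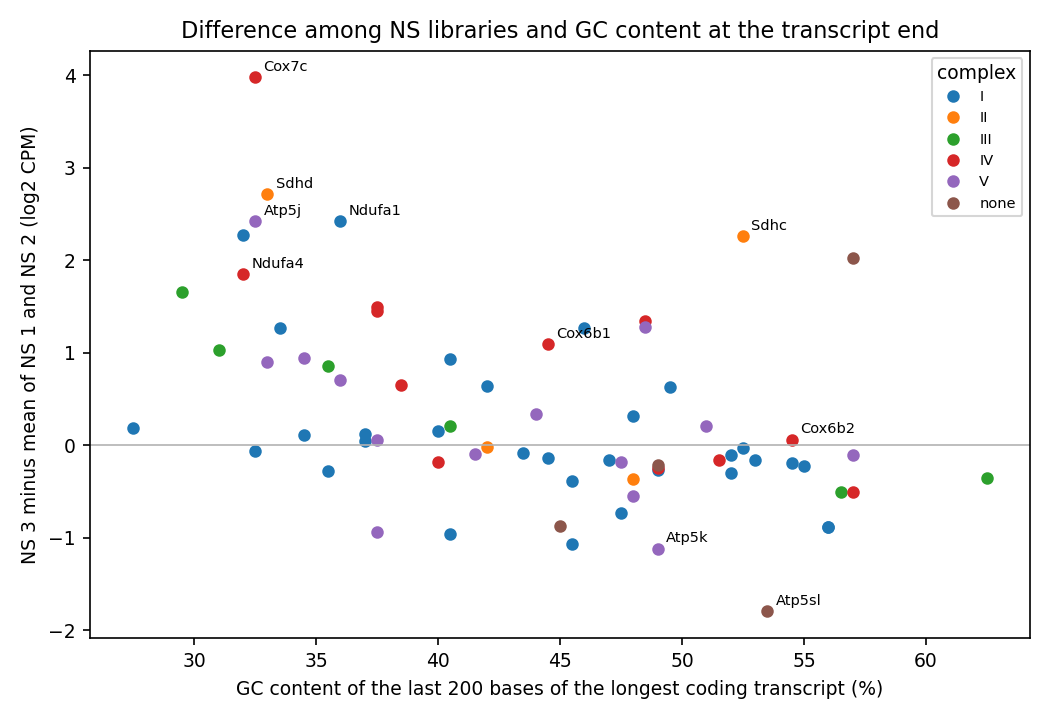
NS 3 minus the mean of NS 1 and NS 2 in log2 CPM (y axis) against the GC content of the last 200 bases of the longest coding transcript (x axis, %), 1 point for each of 71 genes, coloured by complex. Most genes under 37.5% GC lie above 0, with Cox7c at 3.98, and Cox6b2 lies near 0.

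Around the subunits, few genes of related lists passed. Of 28 tested assembly factors 1 rose at 300 mM, Lrpprc, which stabilizes mitochondrial mRNA, at 333.8 ± 81.7 CPM at 300 mM, against 143.9 ± 11.9 CPM in NS (SD, n = 3 each; log2 change 1.21 ± 0.29; edgeR, adjusted p = 0.0184). This call was lost in 4 of 13 alternatives, those without NS 2, without NS 1 and NS 2, and without replicate 2 or replicate 3 at 300 mM. At the lower doses and in ND 0 passed in edgeR. Of 5 subunit genes that the symbols miss (among them Cyc1), 14 of cytochrome c and the quinone pathway, 13 regulators of mitochondrial biogenesis and 22 of the citric acid cycle and pyruvate dehydrogenase, 0 passed in any comparison in edgeR. Of 71 mitochondrial ribosomal protein genes 1 rose at each dose, Mrps6, and 1 fell at 250 and 300 mM, Mrps18a, and their median lay between -0.04 and 0.02 in the 4 comparisons. Mrps6 lost its call in 6, 4 and 1 of 13 alternatives at 200, 250 and 300 mM, and Mrps18a in 7 of 13 at both 250 and 300 mM. Mrps6 had 695, 608 and 529 CPM at 300 mM, against 195, 199.7 and 177 CPM in NS. Of 80 cytosolic ribosomal protein genes 1 rose at 200 mM, Rpl10l, and 2 each at 250 and 300 mM, Rpl10l and Rps6, whose reads may come in part from near-identical copies. The median of the 80 was 0.54 in ND and 0.21 to 0.26 in sorbitol, but it was not above NS in every replicate number. Within replicate 3 the median difference from NS was -0.04 in ND and -0.15, -0.11 and -0.03 at 200, 250 and 300 mM. Within replicates 1 and 2 it was 0.42 to 1.11. Rpl10l lost its call in 4, 7 and 2 of 13 alternatives at 200, 250 and 300 mM, and Rps6 in 8 and 5 of 13 at 250 and 300 mM.

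Of 21 tested genes of glycolysis, the cytosolic route to ATP, 0 passed in ND and at 200 mM, 2 fell at 250 mM and 6 at 300 mM, and none rose. Their median was 0.29 in ND, 0.06 at 200 mM, -0.45 at 250 mM and -0.57 at 300 mM, against medians of the subunit genes of 0.01 and 0.07 at the last 2 doses. The largest changes at 300 mM were those of Aldoc, an aldolase (-2.80 ± 0.52), Slc16a3, which exports lactate (-2.71 ± 0.44), Ldhb, a subunit of lactate dehydrogenase (-1.58 ± 0.34) and Aldoa, the main aldolase (-1.42 ± 0.34). Gpi1 and Ldha fell there too. At 300 mM Gpi1 lost its call in 6 of 13 alternatives, Aldoa and Ldha in 5 each, and Aldoc, Ldhb and Slc16a3 in 1 each. At 250 mM Slc16a3 lost its call in 9 of 13 alternatives, with a log2 change of -1.93 to -0.28, and Ldhb in 4. Leaving out NS 1 was among these for Gpi1, Aldoa, Ldha and, at 250 mM, Slc16a3. Along the dose Aldoc and Pfkfb3, which makes the activator of phosphofructokinase, fell, as Cox6b2 did, and both lost the call in 9 of 15 alternatives, among them library totals in place of TMM and the omission of any 1 of 7 sorbitol libraries, where 0 genes passed at all. The difference between the glycolysis genes and the subunit genes was not tested.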

How the data were processed

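Per the labels' protocols, cells were lysed in Trizol and libraries made by Lexogen's 3' QuantSeq protocol. The deposited values used were raw counts per gene symbol, in 4 tables with identical NS columns, and 0 per-sample columns were left without a sample. CASAVA 1.8.2, STAR, HTSeq, edgeR and the build mm9 are named in the submitters' processing notes, and the strand setting is not given in the sources used here. Counts of genes with near-identical pseudogenes, which many small subunit genes have, are uncertain, and Ndufa2 shared its Ensembl identifier with Cd14.

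All 15 libraries entered 1 fit in edgeR 4.0.16 (glmQLFit and glmQLFTest, R 4.3.3) with a coefficient per group, TMM scaling, the filter filterByExpr (count 10, total 15, per group) and p-values adjusted over all genes by Benjamini-Hochberg at 0.05. The dose slope used the 9 sorbitol libraries. SE is the absolute log2 change over the square root of F. The procedure was tested on simulated counts drawn independently for each library. That test cannot cover differences shared by libraries of 1 replicate number or the split among the NS libraries. Errors of CPM are SD over libraries, and p-values measure the spread between replicates described as biological triplicates. Depth was 968556 to 2289528 counts, so 3 counts are 1.31 to 3.10 CPM.

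Alternatives were library totals in place of TMM, DESeq2 1.42.0, no filter, a replicate block, only the compared libraries, replicates 2 and 3 alone, each library left out, NS 1 and NS 2 left out, and, for complexes, the symbol alone. The numbers were taken to pair 2 groups where deviations from the group means correlated above 0.1 in all 3 same-numbered pairs. With NS this held for 200 mM alone (0.69, 0.12 and 0.63). At 200 mM the block left 0 of the 77 genes called, and called 268 of all genes, against 55 without it. The other groups failed on replicate 2 alone: ND (0.59, 0.07 and 0.46), 250 mM (0.29, -0.08 and 0.20) and 300 mM (0.58, -0.15 and 0.47). Over all groups, 24 of 30 same-numbered pairs correlated above 0.1, so replicate numbers may be shared between groups more widely than this rule counts. The genes and lists were chosen with earlier results of these data known. The text names Cox6b2, all subunit genes called, in each complex the most abundant gene and those of highest and lowest change at 300 mM, all isoform sets and the Sdh genes. It also names the called genes of other lists, apart from the cell type markers, which are given as sums or counts.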

Additional observations from a re-analysis of the deposited data

How the results depend on the processing

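The counts of subunit genes called moved most with the NS libraries and with the replicate number, and so did the calls over all genes. At 250 mM the count of 1 became 2 with library totals, 3 without a filter, 3 in DESeq2, and 0 both with replicates 2 and 3 alone and without NS 1 and NS 2 (372, 825, 742, 28 and 10 of all genes, against 420), and it was 1 to 12 when 1 library was left out (12 without NS 3). At 300 mM the count of 3 became 5 in DESeq2, 1 in the fit of the 6 compared libraries, 1 with replicates 2 and 3 alone and 1 without NS 1 and NS 2 (1031, 462, 116 and 32 of all genes, against 741), and it was 1 to 11 when 1 library was left out (11 without NS 3, 1 without NS 1, NS 2 or replicate 2 or 3 at 300 mM). With the replicate block the count was 11 at 250 mM (8 up, 3 down) and 8 at 300 mM (6 up, 2 down), where 17.9% and 19.9% of all genes were called. At these doses, deviations correlated above 0.1 with NS in replicates 1 and 3 but not in replicate 2. The block left the counts at 0 in ND and at 200 mM and at 1 for the slope. The count for the slope became 0 with library totals and with replicates 2 and 3 alone, and was 0 to 1 when 1 library was left out. In ND it was 0 to 2 and at 200 mM 0 to 1, the upper values without NS 3. The median at 250 mM became 0.11 with library totals, where that of all genes became 0.08, and was 0.0184 to 0.16 when 1 library was left out. At 300 mM it was 0.0026 to 0.12. By symbol alone, the median of complex IV was 0.14 at 250 mM and 0.07 at 300 mM. Of 1738 further values for single genes and complexes under alternatives, 150 changed sign, 0 of them called ones. The cause of these shifts was not tested. With 11 to 103 Cox6b2 counts a group and 3 libraries each, small changes of low genes could not be detected.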
